A study of Oncorhynchus mykiss with 6 samples.

Results

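The miR-30 family was examined in the liver of rainbow trout (Oncorhynchus mykiss). Its members were the names that equal miR-30 once the final -x, -y or -z is removed, which gave 2 names, miR-30-x and miR-30-y, of 2730 listed in all. The study asked which liver miRNAs respond to heat stress. Mature miRNAs were counted in 3 control libraries, from fish kept at 18 °C, and 3 heat libraries, from fish whose water was warmed by 1 °C per 24 h to 24 °C. All fish were female per the labels, with an age label of 150 days and a mean weight of 200 g, and the labels name no genetic change in either group. An acclimation of 7 days is given for both groups. The labels speak of 12 fish but do not say which or how many went into a library, or which tank they came from. Where 3 values stand for a temperature, they follow the order of replicates 1, 2 and 3. P-values set a difference against the spread between these libraries, which may be technical. Those of edgeR, and its intervals, also draw on the spread of the other names tested.

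miR-30 is an ancient vertebrate family in which several genes give mature miRNAs with a common seed, the stretch near the 5′ end that pairs with target transcripts. A miRNA hairpin is cut into a duplex whose arms, 5p and 3p, can each be loaded into an Argonaute protein. For miR-30 the 5p arm is the usual guide, although the 3p arm is also found in many tissues. In liver the family is known for its role in bile duct formation in zebrafish, for the lowering of lipoprotein secretion by miR-30c in mice, and for restraint of mesenchymal transition and fibrosis in mammals.

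The deposited tables give 1 sequence for each name, shown here 5′ to 3′ with T for U because these bases identify the arms; capitals mark the seed, bases 2 to 8.
miR-30-x: tGTAAACAtccttgactgga
miR-30-y: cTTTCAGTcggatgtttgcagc
miR-30-x begins with the seed of the vertebrate 5p arm and miR-30-y with a seed known from vertebrate 3p arms. The seeds GTAAACA and TTTCAGT differ. Neither sequence was listed under another name. Neither seed stood at bases 2 to 8 of any other name, whether known or predicted. The most similar other sequence differed from miR-30-x by 6 single-base edits and from miR-30-y by 7.

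The sequences are largely complementary. Bases 4 to 11 of miR-30-x (aaacatcc) match bases 10 to 17 of miR-30-y (ggatgttt) without a mismatch, and bases 14 to 18 (gactg) match bases 5 to 9 (cagtc). Hybridized in silico, the arms formed 18 base pairs with a predicted energy of -23.2 kcal/mol. The listed miR-30-x is 20 bases long, a length at or below which 27.0% of the 259 known x names with a count fall, and the listed miR-30-y has 22 bases. The names carry no paralog letter, so the separate miR-30 genes cannot be told apart in these counts.

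Among the 6 libraries, with 9267658 to 12778484 counts each, control replicate 2 and heat replicate 1 stood apart. TMM is a normalization that scales each library as a whole, on the assumption that most names do not differ between libraries. The TMM factors of this pair were 1.25 and 1.24, against 0.87 to 0.92 elsewhere. The pair had counts for 2077 and 2157 names, against 1579 to 1701. The differences between temperatures in miR-30 levels, shares and ratios are also given without both.

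miR-30-x was among the most abundant miRNAs of the trout liver in every library. The fish at 18 °C gave 522327, 866064 and 476549 counts, and those at 24 °C gave 959729, 437750 and 505178. These counts placed it 5th, 3rd and 8th of all names in the control libraries and 3rd, 6th and 6th in the heat libraries. The ranges overlapped: each group held 1 library well above its other 2.

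For miR-30-y the counts were 15110, 34557 and 18860 at 18 °C and 28790, 16403 and 17577 at 24 °C. It ranked 30th to 34th among all names. Thus the 3p arm, although minor within its own family, outnumbered most of the miRNAs listed. Its highest counts also lay in control replicate 2 and heat replicate 1.

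As a share of all counts in a library, the miR-30 names together held 5.54%, 7.57% and 4.46% at 18 °C and 7.74%, 4.90% and 5.10% at 24 °C. Their share averaged 5.86% ± 1.58 at 18 °C and 5.91% ± 1.58 at 24 °C (SD, n = 3, two-sided exact permutation p = 0.9). For miR-30-x alone the mean shares were 5.65% ± 1.51 and 5.72% ± 1.55 (SD, n = 3, two-sided exact permutation p = 1). With 3 libraries against 3 this test cannot give a p under 0.1. Counting error was small beside this spread: the exact binomial 95% interval of the lowest miR-30-x share ran from 4.27% to 4.30%, and it covers counting error only.

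The high shares fell in the libraries that stood apart, 1 of each temperature. In control replicate 2 and heat replicate 1 miR-30-x held 7.28% and 7.51% of counts, and in the other 4 libraries 5.39% or less. For miR-30-y the shares were 0.291% and 0.225% there and 0.177% or less in the other 4. Without both libraries the share of the miR-30 names differed by 0.00080 percentage points between 24 and 18 °C, against 0.055 with all 6, and the miR-30-x share differed by -0.011, against 0.069. Of 46 known names above a log2 CPM (normalized count scaled to a common library size) of 10, 21 had a higher share in both of these libraries than in any other, and 4 a lower one. Both miR-30 names are among the 46 and among the 21. Higher shares there were thus not confined to miR-30. The high TMM factors that set this pair apart already imply higher shares for many names, so the count is not separate evidence.

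Sums over cell type markers also differed in this pair, but the hepatocyte and leukocyte sums were each led by 1 name. The members of a list did not all move together. Counts of members that were higher or lower in both libraries stand beside 21 higher and 4 lower among the 46 abundant known names. Many marker names lie below the level of these 46, so the counts are not matched for level. The 11 hepatocyte names (of miR-122, miR-192, miR-194, miR-148 and miR-101) summed to 29.8% and 31.6% of counts in control replicate 2 and heat replicate 1, against 33.4% to 35.3% elsewhere. Of these names miR-122-x alone had a lower share in both libraries, at 18.5% and 23.2% against 24.9% to 28.6%. A higher share in both was found for 6 of the 11, among them miR-101-y at 1.54% and 1.86% against 0.536% to 1.28%. Also among the 6 was miR-122-y, the scarcer name of the miR-122 family, at 0.155% and 0.126% against 0.0323% to 0.0634%. The names of that family thus went opposite ways. All 11 were counted in every library.

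The 11 leukocyte names summed to 4.08% and 2.31%, against 1.46% to 1.65%. Most of that was miR-146-x, at 3.76% and 1.96% against 1.37% to 1.48%. A higher share in both libraries was found for 6 of the 11 and a lower one for 0, beside 21 and 4 of the 46 abundant known names. Of these 6, miR-142-y, miR-223-y and miR-155-x had a mean log2 CPM of 6.67, 5.58 and 4.22. That is below the level of the 46 names, so the counts are not matched for level. The B- and T-cell miRNA miR-150-x had its lowest share of all 6 libraries in control replicate 2 (0.00499%) and its highest in heat replicate 1 (0.0198%). The 10 endothelial and stromal names summed to 13.2% and 13.5%, below each of the other 4 libraries, which reached 16.4%. There miR-199-x (4.94% and 7.09% against 8.83% to 10.5%) and miR-126-y were lower in both, and 5 names were higher, among them miR-199-y (2.48% and 1.39% against 0.949% to 1.28%).

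The 5 pancreas names summed to 0.0433% and 0.0360%, against 0.0134% to 0.0190%. A higher share in both libraries was found for 3 of the 5 and a lower one for 0. The acinar miR-216-x was at 0.0242% and 0.0166% against 0.00113% to 0.00783%. miR-375-y did not set both libraries apart, at 0.0132% and 0.0180% against 0.00903% to 0.0176%. The 10 retina and neural names summed to 0.0141% and 0.0123%, against 0.00536% to 0.00903%, with 4 of the 10 higher in both libraries and 0 lower. The erythrocyte sum, 0.347% to 0.839%, and the muscle sum, 0.00134% to 0.00375%, did not set both libraries apart. By temperature, the hepatocyte sum was 29.8% to 35.3% in control and 31.6% to 34.2% in heat, the leukocyte sum 1.50% to 4.08% and 1.46% to 2.31%, and the pancreas sum 0.0134% to 0.0433% and 0.0160% to 0.0360%. Of the leukocyte, muscle and pancreas names, 2 each were at 0 in at least 1 library, as were 3 of the retina and neural names. The part of these cell types in the miR-30 shares was not tested. In bulk tissue a change in the number of cells and a change in RNA per cell cannot be told apart.

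**Figure D1:**
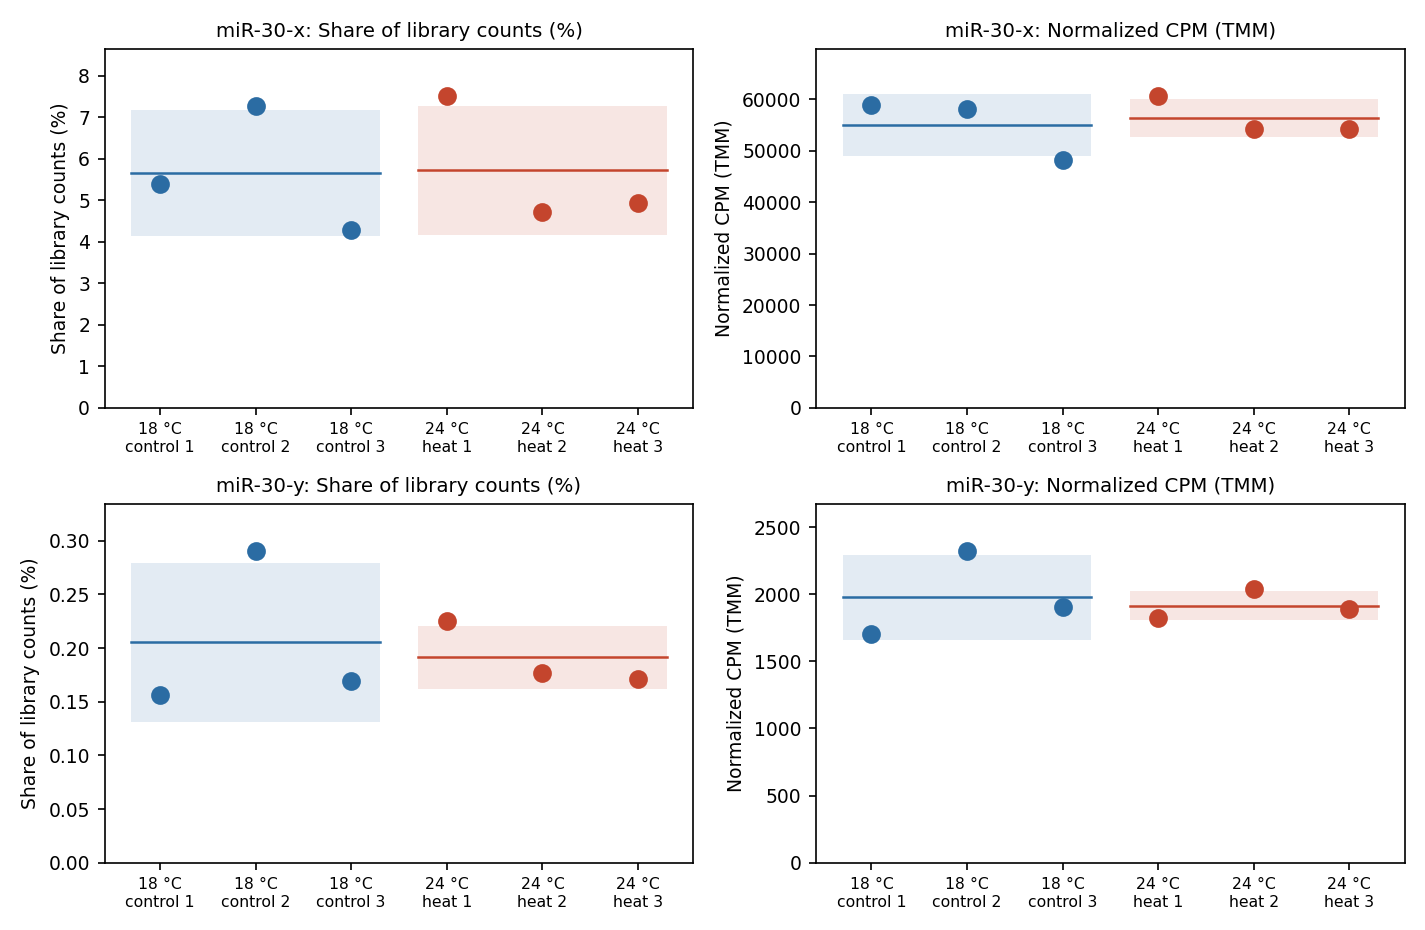
miR-30-x (top) and miR-30-y (bottom) in each library, as a share of library counts in percent (left) and as TMM-normalized CPM (right). Points are libraries (blue 18 °C, red 24 °C), lines are group means and bands are ± 1 SD (n = 3). On the share scale control 2 and heat 1 stand above the rest, and on the CPM scale miR-30-x lies between 48153 and 60640 in all 6 libraries.

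After normalization by TMM the level of miR-30-x was much more even. It measured 58886, 58204 and 48153 CPM at 18 °C and 60640, 54310 and 54311 CPM at 24 °C. The highest library exceeded the lowest by 1.26-fold on this scale, against 1.75-fold as a share of counts.

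For miR-30-y the normalized levels were 1703, 2322 and 1906 CPM at 18 °C and 1819, 2035 and 1890 CPM at 24 °C. Every heat library lay inside the range of the control libraries. The guide-arm name thus averaged 55081 ± 6009 CPM at 18 °C and 56421 ± 3654 CPM at 24 °C, and the 3p name at 1977 ± 316 and 1915 ± 110 CPM (SD, n = 3).

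Neither name differed between 24 and 18 °C beyond the spread of the libraries. For miR-30-x the log2 fold change was 0.03 ± 0.21 (SE; 95% interval -0.46 to 0.52; adjusted p = 0.995 by edgeR's quasi-likelihood test with Benjamini-Hochberg adjustment over all names). As a fold this is 1.02, with an interval from 0.729 to 1.44, so a 2-fold change in either direction lay outside it. For miR-30-y it was -0.05 ± 0.22 (SE; 95% interval -0.56 to 0.47; edgeR adjusted p = 0.995), a fold of 0.968 with an interval from 0.677 to 1.39. Smaller changes remain possible inside these intervals.

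Both names passed the low-count filter, and neither was among the names called. Across the whole table edgeR called 0 of 651 names, or 0%, with 20 at an unadjusted p under 0.05. The DESeq2 Wald test called 2 of 2724 and had 55 at an unadjusted p under 0.05, and limma-voom with quality weights called 0 with 30. The groups did not overlap in normalized CPM for 8.29% of the 651 names, and both miR-30 names were among those that did overlap. A separate fit of 404 features summed the known names by family and counted each predicted sequence once. It had its own TMM factors, so its levels and fold changes are not on the scale of the name-level fit. With the names summed into 1 family, miR-30 measured 56618 ± 6421 CPM at 18 °C and 58991 ± 5270 CPM at 24 °C (SD, n = 3), which differ by 0.06 ± 0.21 in fitted log2 fold change (SE, 95% bounds -0.43 to 0.55; edgeR adjusted p = 0.999).

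The sign of these small differences rested on single libraries. For miR-30-x it turned without control replicate 3 (log2 fold change -0.0076). For miR-30-y it turned without control replicate 2 (0.081), heat replicate 1 (0.011) or heat replicate 3 (0.0039). For the summed family it turned without control replicate 3 (-0.077) or heat replicate 1 (-0.061). Without control replicate 2 and heat replicate 1 together the log2 fold changes were -0.011 for miR-30-x, 0.089 for miR-30-y and 0.10 for the family.

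**Figure D2:**
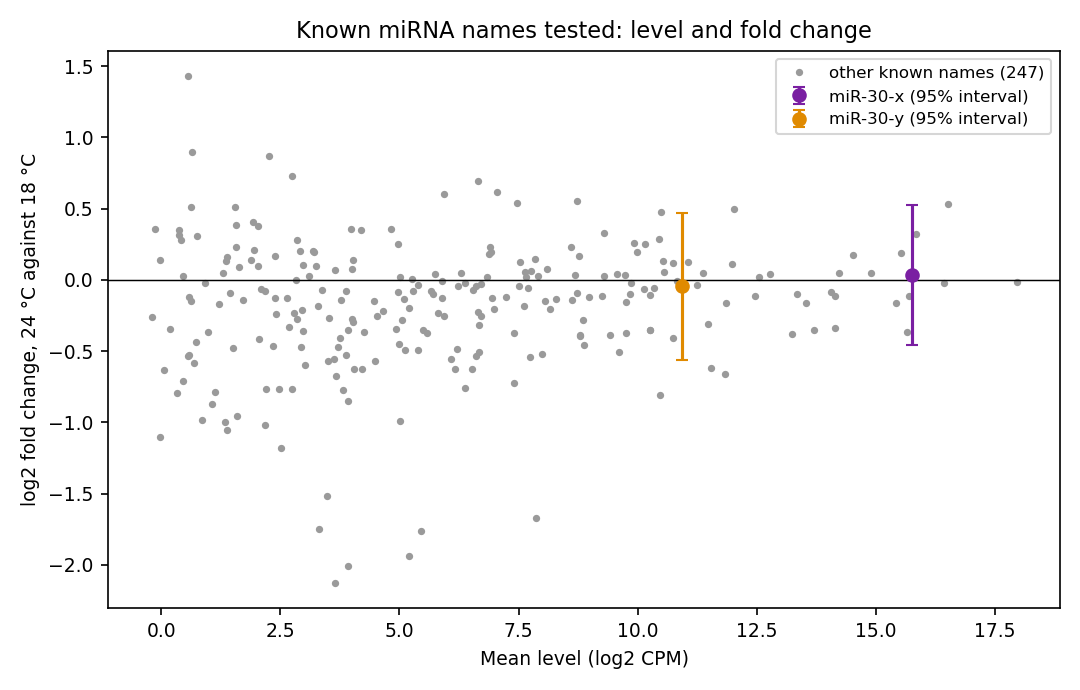
Log2 fold change of 24 °C against 18 °C (vertical axis) by mean level in log2 CPM (horizontal axis) for the known names tested. Grey points are the other known names, and the coloured points with bars are the miR-30 names with their 95% intervals, which span 0.

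The balance between the arms was examined within each library, where no normalization enters. Because the miR-30 genes cannot be told apart, the names may not pool the same genes. The ratio is thus one of names and need not be that of the arms of the same hairpins. The ratio of miR-30-x to miR-30-y was 34.6, 25.1 and 25.3 at 18 °C and 33.3, 26.7 and 28.7 at 24 °C. miR-30-y thereby made up 2.81%, 3.84% and 3.81% of miR-30 counts in the control libraries and 2.91%, 3.61% and 3.36% in the heat libraries. It was lowest in control replicate 1 and heat replicate 1, which carry different temperatures.

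The miR-30-y share averaged 3.49% ± 0.584 at 18 °C and 3.30% ± 0.354 at 24 °C (SD, n = 3, two-sided exact permutation p = 0.6). The log2 ratio of the arms was 4.81 ± 0.26 and 4.88 ± 0.16 (SD, n = 3, two-sided exact permutation p = 0.6), a difference of 0.07 that is also the test of whether the names moved apart. It turned sign without control replicate 2 (-0.0046) or heat replicate 1 (-0.014), was 0.23 without control replicate 1, and was -0.094 without control replicate 2 and heat replicate 1 together. The arm ratio of miR-30 overlapped between temperatures, while in 5.48% of the 73 families with both an x and a y name tested it did not.

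Among miRNA families of this liver the miR-30 arm ratio varied little. In 50 families the smaller of the names had a mean count of at least 100. Over the 6 libraries the SD of the log2 ratio was 0.20 for miR-30, the lowest of the 50, against a median of 0.48 and a highest value of 1.71. The margin was thin: miR-17, with a mean of only 107 counts on its smaller name, had 0.21. The smaller name held 3.39% of counts in miR-30 and a median of 4.53% over these families, of which 18 had a smaller share than miR-30. The x name was the larger in 32 of the 50, as it was in miR-30. These are descriptions without a test, and miR-30-y, at 15110 counts or more, carries little counting error.

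**Figure D3:**
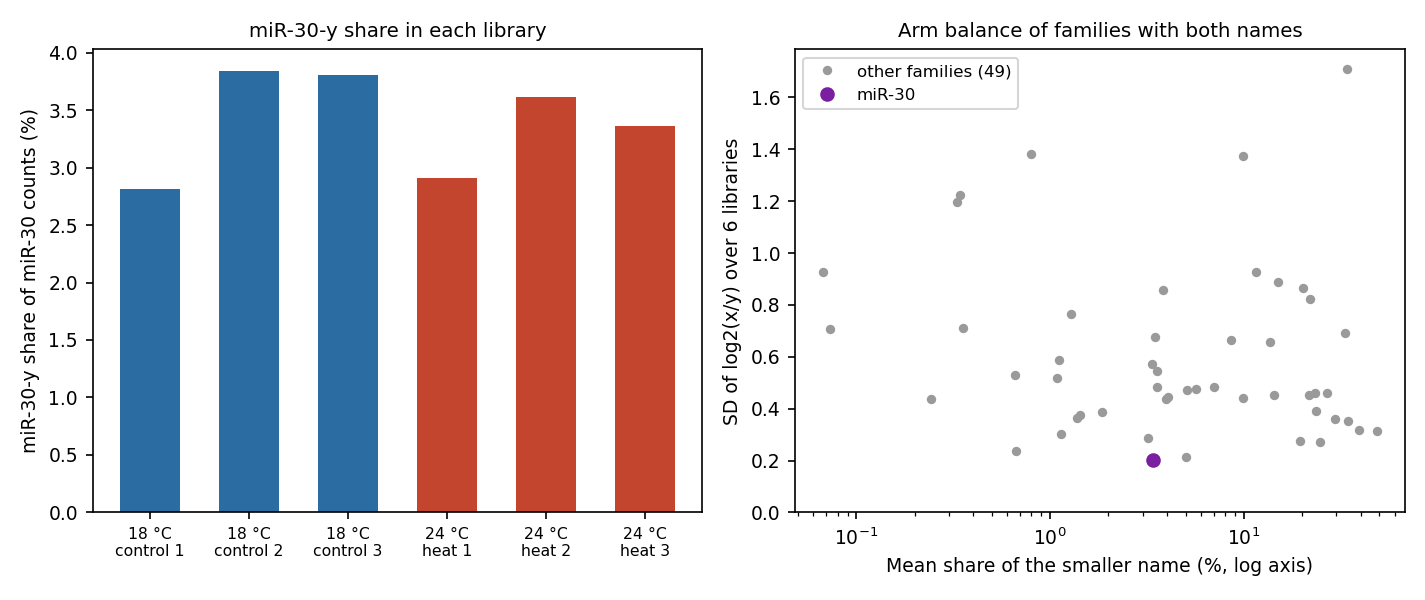
Left, the share of miR-30 counts on miR-30-y in percent for each library (blue 18 °C, red 24 °C), from 2.81% to 3.84%. Right, for 50 families, the SD over the 6 libraries of the log2 ratio of x to y (vertical axis) by the mean share of the smaller name in percent (horizontal log axis); miR-30 is the lowest point at 0.20.

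Within-library ratios also set miR-30-x against 5 other abundant miRNAs. The hepatocyte miRNA miR-122-x exceeded miR-30-x in all 6 libraries. The log2 ratio of miR-30-x to it was -2.33, -1.34 and -2.74 at 18 °C and -1.62, -2.44 and -2.33 at 24 °C. The means were -2.14 ± 0.72 and -2.13 ± 0.44 (SD, n = 3, two-sided exact permutation p = 1), with the ratio nearest to 0 in control replicate 2 and heat replicate 1. The sign of the difference turned without control replicate 1 (-0.093), control replicate 3 (-0.30) or heat replicate 1 (-0.25), and the difference was 0.0027 with all libraries and 0.14 without control replicate 2 and heat replicate 1 together.

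miR-26-x, a widely expressed growth-restraining miRNA, was close to miR-30-x in level, except in control replicate 2. The log2 ratio of miR-30-x to miR-26-x was -0.22, 1.40 and -0.47 at 18 °C and 0.25, -0.49 and -0.36 at 24 °C. The difference between temperatures was -0.44 (two-sided exact permutation p = 0.6) and 0.14 without control replicate 2, or -0.080 without heat replicate 1 as well. In control replicate 2 miR-26-x held 2.75% of counts against 5.93% to 6.64% in the other libraries.

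let-7-x, of the differentiation-linked let-7 family, was also close to miR-30-x in level. The log2 ratio was 0.17, 0.21 and -0.37 at 18 °C and 0.15, 0.12 and 0.20 at 24 °C (difference 0.15, two-sided exact permutation p = 0.9). Its spread was 0.04 in heat and 0.32 in control (SD of the log2 ratio, n = 3), and the wider value came from control replicate 3. Without that library the difference was -0.040, and without control replicate 2 and heat replicate 1 together it was 0.25.

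miR-21-x, linked to inflammation and fibrosis in mammals, kept a mean log2 ratio of 1.55 in both groups, with an SD of 0.08 in control and 0.22 in heat (n = 3, two-sided exact permutation p = 1). The difference of -0.00032 turned to 0.022 without control replicate 1, 0.026 without control replicate 2, 0.11 without heat replicate 2 and 0.023 without control replicate 2 and heat replicate 1 together. miR-148-y, a liver-rich miRNA tied to lipoprotein uptake in mammals, had log2 ratios of 2.16, 0.97 and 1.85 at 18 °C and 2.52, 1.43 and 1.35 at 24 °C. Their difference was 0.11 (two-sided exact permutation p = 1), and -0.24 without control replicate 2, -0.27 without heat replicate 1 and -0.62 without both. In none of the 5 ratios did the groups separate, and the p adjusted over the 5 was 1 for each.

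**Figure D4:**
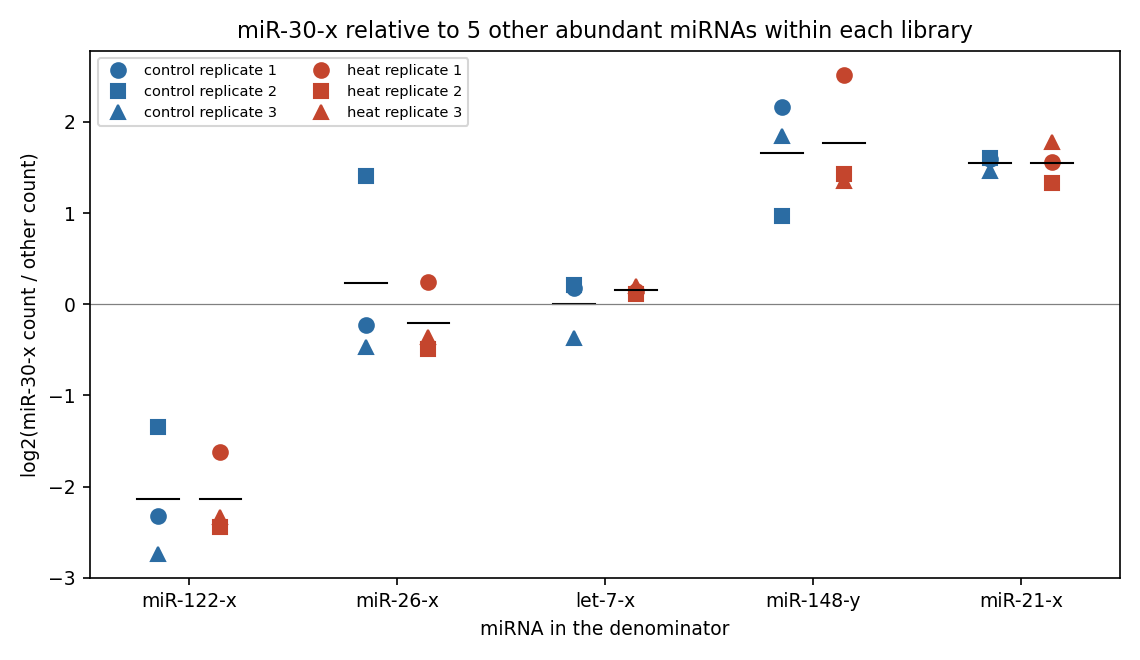
Log2 ratio of the miR-30-x count to the count of each of 5 other miRNAs (horizontal axis) within each library. Circles, squares and triangles are replicates 1, 2 and 3, blue is 18 °C and red 24 °C, and black bars are group means. The temperatures overlap for every ratio, and control replicate 2 stands apart for miR-26-x at 1.40.

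How steady the members looked across the 6 libraries depended on the scale. In normalized log2 CPM, miR-30-x had an SD of 0.12, and of 136 known names above a log2 CPM of 5 only miR-25-y, named after its value was seen, was lower, at 0.098. miR-30-y had an SD of 0.15, with 9 names below it, against a median of 0.39. As a log2 share of library totals, both had an SD of 0.34, with 41 and 42 of the 136 names below them and a median of 0.48. Beside names of like abundance, the 46 known names above a log2 CPM of 10, both were average by share. The median there was 0.34, with 22 names below miR-30-x and 23 below miR-30-y. In normalized log2 CPM the median of the 46 was 0.37, with 1 name below miR-30-x and 6 below miR-30-y.

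**Figure D5:**
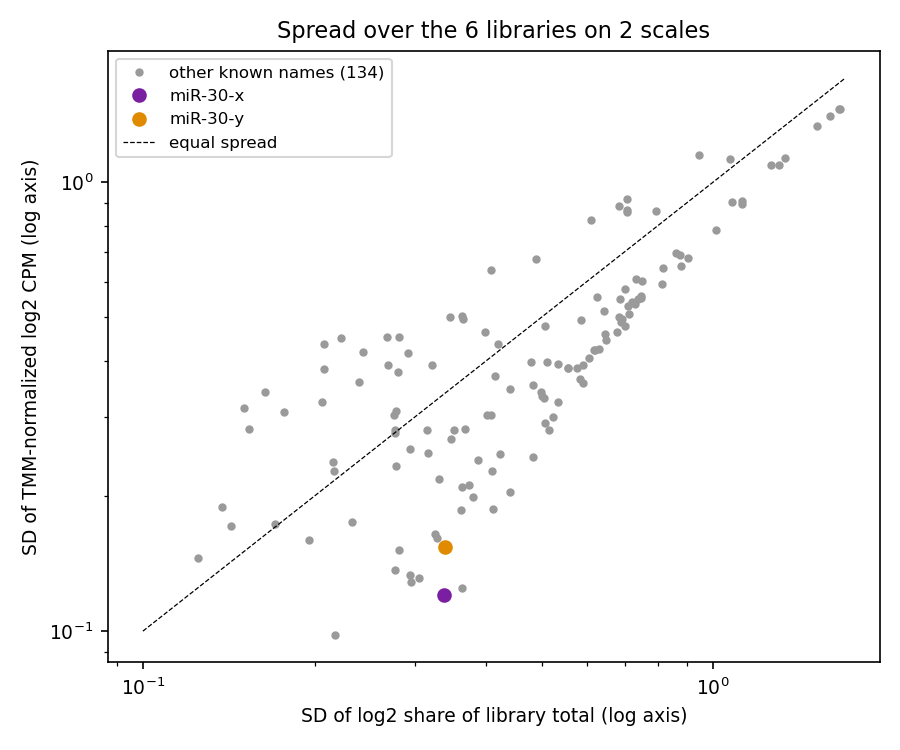
SD over the 6 libraries of TMM-normalized log2 CPM (vertical log axis) by the SD of the log2 share of the library total (horizontal log axis) for 136 known names; the dashed line marks equal spread. Both miR-30 names lie well under the line, miR-30-x at 0.34 by share and 0.12 after normalization.

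The names closest to the miR-30 names in pattern were sought by the root mean square difference of centred log2 CPM over the 6 libraries, among 135 known names. Because the members varied so little, a flat line would lie at 0.11 from miR-30-x and 0.14 from miR-30-y, so this measure mainly picks names that are themselves steady. For miR-30-x only miR-145-y, of a smooth-muscle miRNA cluster, was nearer than a flat line, at 0.10. miR-22-x, miR-722-y, miR-148-x and miR-21-x, at 0.13 to 0.14, were not, and its own partner miR-30-y came 16th, at 0.18. For miR-30-y, 6 names were nearer than a flat line. The closest was miR-143-y, the cluster partner of miR-145 in vertebrates, at 0.062, followed by miR-192-z, miR-106-x, miR-148-x and miR-17-x at 0.099 to 0.13. All these values share the same 6 libraries and normalization factors.

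miRNAs studied in the same liver processes as miR-30 were described by list. edgeR called 0 of all 651 names, so 0 calls in a list is not a result about that list. Of the list for fibrosis and mesenchymal transition, 27 names were tested, of which 0 passed the edgeR test in either direction. Their fold was above 1 for 9 and below 1 for 18, with a median log2 fold change of -0.11, beside -0.12 over the 249 known names (88 above and 161 below 1) and -0.02 over all 651 tested. The excess below 1 stayed under other scalings. With library totals alone 90 known names were above and 159 below 1, and with DESeq2 size factors 86 and 163. The list had 9 and 18 with library totals alone, and 8 and 19 with DESeq2 size factors. The fit with known families alone, a setting added for the lists after the data were seen, cannot test this excess. It takes its TMM factors from the known names, which tends to centre their fold changes near 0. There 121 known names were above and 128 below 1 (median -0.0089). The list then had 13 above and 14 below (median -0.012). The lowest p belonged to the epithelial miR-200-z, with 354 ± 429 CPM at 18 °C and 111 ± 34.4 CPM at 24 °C (SD, n = 3; log2 fold change -1.67 ± 0.85, SE, or 0.024 without control replicate 2 and -0.27 without heat replicate 1 as well; edgeR adjusted p = 0.995). The p53-induced miR-34-x followed at 6.74 ± 4.91 and 3.98 ± 0.585 CPM, and miR-194-y, of a hepatocyte and gut epithelial cluster, at 86.7 ± 46.2 and 56.2 ± 24.8 CPM (SD, n = 3). Both values rested on control replicate 2: without it the log2 fold change of miR-34-x went from -0.76 to -0.026 and that of miR-194-y from -0.62 to -0.11. Without heat replicate 1 miR-194-y was at -1.004, and without heat replicate 2 at -0.35. The more abundant names of 2 of these families had smaller fitted differences. miR-200-y averaged 3140 CPM at 18 °C and 2536 CPM at 24 °C (log2 fold change -0.31), and miR-194-x 5838 and 5400 CPM (-0.11).

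Of the hepatic lipid list, 18 names were tested, of which 0 passed, as 0 of all 651 did. The fold was above 1 for 4 of the 18 and below 1 for 14 (median log2 fold change -0.16). The counts were the same with library totals alone or DESeq2 size factors. With known families alone fitted, the list had 8 above and 10 below 1, with a median of -0.061. Beside miR-34-x its lowest p values belonged to miR-33-x, which lies within genes of the sterol-regulatory SREBF family and targets the cholesterol exporter ABCA1 in mammals, with 48.8 ± 18.0 CPM at 18 °C and 74.0 ± 33.6 CPM at 24 °C, and to the myeloid miR-223-x, at 1.72 ± 0.309 and 1.14 ± 0.149 CPM (SD, n = 3). For miR-33-x, leaving out heat replicate 1 took the log2 fold change from 0.60 to 0.21, leaving out control replicate 2 as well took it to 0.051, and leaving out control replicate 1 alone gave 0.91. The more abundant miR-33-y averaged 110 CPM at 18 °C and 130 CPM at 24 °C (log2 fold change 0.23). Of the widely expressed abundant miRNAs, 31 names were tested, of which 0 passed, again as for all 651 names. The fold was above 1 for 13 of the 31 and below 1 for 18 (median -0.08). The counts were the same with library totals alone or DESeq2 size factors. With known families alone fitted, 16 of these names were above and 15 below 1, with a median of 0.030. Their lowest p values were those of miR-99-x (3456 ± 613 and 4888 ± 1140 CPM), miR-100-x (76863 ± 10414 and 111076 ± 43189 CPM) and miR-22-y (57678 ± 1944 and 44856 ± 8295 CPM; SD, n = 3). Both miR-223-x and miR-22-y were lower in every heat library than in any control library, as the groups were separate for 8.29% of all names. miR-223-x is the scarce name of its family, with a mean of 15.7 counts per library. The more abundant miR-223-y overlapped between groups, at 36.4 to 79.4 CPM at 18 °C and 22.0 to 63.8 CPM at 24 °C. Some names, such as miR-34-x, stand in more than 1 of these lists.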

How the data were processed

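The authors deposited, per the file headers, a raw count for every miRNA name in each library beside a TPM value that was not used here. The sources used here do not give the aligner, miRNA database or genome build, and the one protocol text describes rRNA-depleted, fragmented RNA and retina, not a small RNA library. Total counts ran from 9267658 to 12778484 per library. The test was edgeR 4.0.16 under R 4.3.3 (names filtered by filterByExpr at a minimum of 10 counts, TMM, robust quasi-likelihood test, Benjamini-Hochberg threshold 0.05). Standard errors came from the F statistic and intervals are 95%. Shares and ratios were tested by two-sided exact permutation over libraries. Arm hybridization used RNAduplex of ViennaRNA 2.7.2. Alternatives were DESeq2 1.42.0, limma 3.58.1, other scalings, filters, feature sets and libraries left out. Named miRNAs were the miR-30 names, 5 comparison miRNAs, the 5 names most like each member, and up to 3 names with the lowest p per list. miR-223-y, miR-200-y, miR-33-y, miR-375-y, miR-122-y, miR-194-x as a list member and the miR-17 arm ratio were added after their values were seen. The members and lists were chosen with earlier results of these data known.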

Additional observations from a re-analysis of the deposited data

How the results depend on the processing

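The miR-30 names passed the threshold in none of the alternatives run, with log2 fold changes of -0.01 to 0.14 (miR-30-x), -0.17 to 0.09 (miR-30-y) and -0.08 to 0.10 (family); their widest 95% bounds were 0.546-fold and 1.73-fold. Names called numbered 23 without a count filter and 2 with DESeq2; the cause was not tested. miR-30-y had the other sign with known families alone (0.065) and with quality weights (0.073). Without control replicate 2 and heat replicate 1 together, signs turned for miR-30-x (-0.011), miR-30-y (0.089), the miR-30-x share (-0.011 percentage points), the arm log2 ratio (-0.094), the miR-30-y share of the family (0.18 percentage points) and the log2 ratios to miR-148-y (-0.62) and miR-21-x (0.023). With 1 library left out the differences ran from -0.86 to 0.91 (family share) and -0.83 to 0.88 (miR-30-x share) percentage points, and -0.53 to 0.0019 for the miR-30-y share of the family. Log2 values ran from -0.0076 to 0.098 (miR-30-x), -0.17 to 0.081 (miR-30-y), -0.077 to 0.078 (family), -0.014 to 0.23 (arms), -0.30 to 0.40 (miR-122-x), -0.79 to 0.14 (miR-26-x), -0.040 to 0.25 (let-7-x), -0.27 to 0.36 (miR-148-y) and -0.11 to 0.11 (miR-21-x). Other fold changes ran, with 1 library left out, from -2.19 to 0.024 (miR-200-z), -0.29 to 0.23 (miR-122-x), -0.043 to 0.58 (miR-26-x), -0.18 to 0.033 (let-7-x), -0.34 to 0.39 (miR-148-y) and -0.016 to 0.22 (miR-21-x). They also turned for miR-122-x (0.014 without a filter, 0.029 with the replicate block, 0.069 with known families alone), miR-148-y (0.61 without both libraries, 0.027 with known families alone, 0.36 with quality weights) and miR-21-x (-0.0092 without both libraries, -0.011 with quality weights). Equal replicate numbers showed no clear pairing of the libraries: their deviations from the group means correlated at -0.055, -0.27 and 0.37, and 1 library of 6 matched its own number best. So few values cannot decide whether the libraries were paired. The replicate block gave 0 called names, log2 fold changes of 0.039 for miR-30-x and -0.036 for miR-30-y, and it changed no edgeR call; for shares and ratios its sign-flip p was 0.5 to 1, and 3 pairs cannot give one under 0.25.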
